A study of Sus scrofa with 8 samples.

Results

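The genes described here are 10 that build fatty acids and store them as triglyceride: ACLY, ACACA, ACACB, FASN, ME1, ELOVL6, SCD, DGAT1, DGAT2 and SREBF1. They were taken by gene symbol from a deposited table of 23235 genes, with no use of their values, and all 10 have a row there. The tissue is longissimus dorsi, the long muscle of the back, from weaned Duroc x Landrace x Yorkshire piglets, 28 days old when they were allotted. Melatonin piglets received 5 mg of the hormone per kg body weight in 10 mL of saline by gavage each morning, fasted, for 23 days, after 5 days of adaptation, and control piglets received the saline alone. Every animal ate the basal diet, and 6 were randomised to each group. The 8 libraries analysed, 4 melatonin and 4 control, carry replicate numbers and no animal identifiers, so p-values measure the spread between these samples.

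De novo lipogenesis turns surplus carbohydrate into fat. Citrate leaves the mitochondrion and is split to acetyl-CoA, acetyl-CoA is carboxylated to malonyl-CoA, and fatty acid synthase condenses malonyl-CoA units with NADPH into palmitate. Palmitate is lengthened, desaturated and esterified to glycerol, and SREBP-1 raises transcription of most of these enzymes when insulin is high. In pigs adipose tissue is the main site of the pathway. Muscle fibres use malonyl-CoA largely as a brake on fatty acid entry into mitochondria, while adipocytes lying between the fibres make the marbling fat.

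For each of the 10 genes the difference after melatonin was within the spread of its libraries. FASN, SCD, DGAT2 and ELOVL6 were high in 1 or more libraries of each group and low in others, whereas ACACA, ACACB and DGAT1 varied by 2.48-fold or less over the 8 libraries. With edgeR's quasi-likelihood test over the 9821 genes at a mean of at least 1 FPKM (fragments per kilobase of transcript, scaled to library size), 0 of 10 genes passed an adjusted p of 0.05, against 0.0% of all genes. At an unadjusted p under 0.05 the count was also 0 of 10, against 10.5% of all genes, and it was 0 of 10 in limma and 0 of the 9 genes to which DESeq2 gave a p-value. Over all genes, edgeR had 1032 at that level, DESeq2 1212 and limma 556, and DESeq2 passed 65 at the adjusted threshold. The smallest adjusted p of a lipogenic gene was 0.61, for ACACA. Of the 10 genes 6 had a log2 fold change above 0, with a median of 0.12, beside a median of -0.00 over all genes. In none of the 10 were the FPKM ranges of the groups separate, which was the case for 2.2% of all genes tested.

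**Figure D1:**
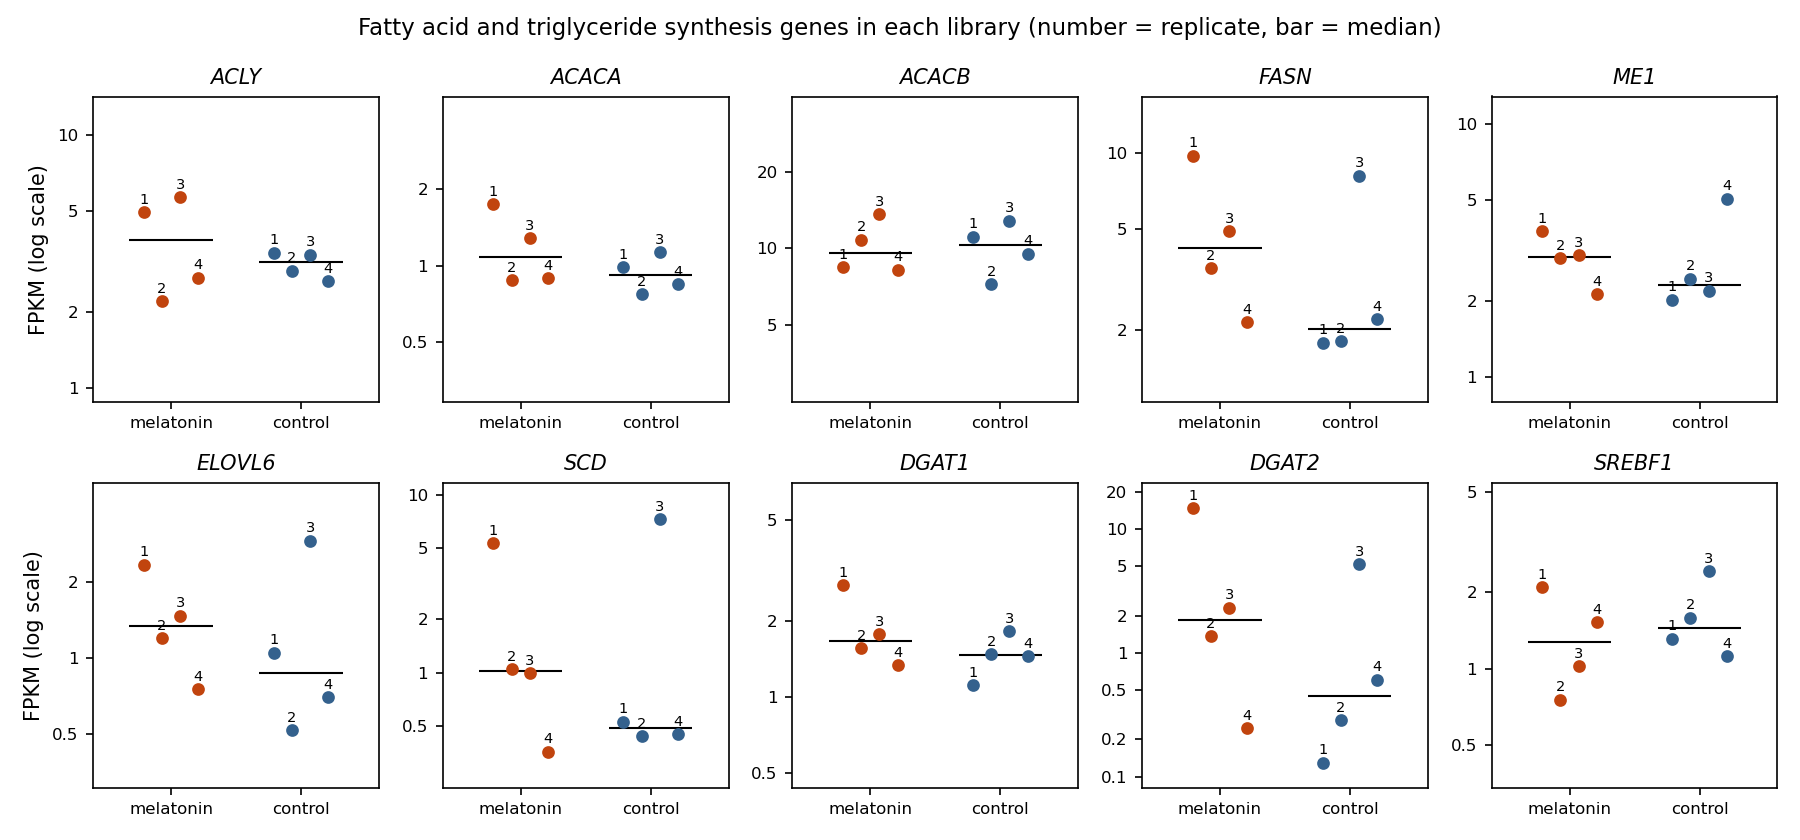
FPKM on a log scale for the 10 genes in the 4 melatonin libraries (left, orange) and the 4 control libraries (right, blue), with replicate numbers and a bar at the group median. SCD reached 5.33 FPKM in melatonin replicate 1 and 7.29 FPKM in control replicate 3 and stayed at or below 1.05 FPKM in the other 6 libraries.

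Total counts ran from 53891623 to 60629098 in melatonin libraries and from 53471667 to 58930078 in control libraries. The skeletal muscle genes ACTA1 and CKM averaged 58933 and 12225 FPKM after melatonin and 65278 and 13122 FPKM in controls. Myosin heavy chain genes varied more over the 8 libraries. MYH1 ran from 2208 to 7865 FPKM, MYH4 from 1328 to 8463 FPKM and MYH7 from 130 to 1668 FPKM. Of 8 muscle fibre markers tested, 1 had a log2 fold change above 0 (MYH1, 0.38) and 7 were below 0. COL1A1, the main fibrillar collagen, measured 3457 and 913 FPKM in melatonin replicates 1 and 3, against 110 and 151 FPKM in melatonin replicates 2 and 4 and 95.5 to 165 FPKM in controls. Not every fibroblast marker stood apart in melatonin replicate 3: COL3A1 measured 361 FPKM there and 443 FPKM in control replicate 1, and LUM 18.8 and 29.5 FPKM. Of 8 fibroblast markers 8 had a log2 fold change above 0 (median 0.97), against 49.8% of all genes. An unadjusted p under 0.05 was reached by 5 of the 8, against 10.5% of all genes. Their sums were 675.5 to 8537 FPKM after melatonin and 490.6 to 967.5 FPKM in controls. Sums of 6 endothelial markers (46.3 to 62.7 FPKM after melatonin, 41.9 to 64.4 FPKM in controls) and of 6 macrophage markers (9.13 to 35.1 FPKM after melatonin, 11.4 to 24.9 FPKM in controls) overlapped. All 10 lipogenic genes passed the filter. Because the filter is on the mean over 8 libraries, SCD, ACACA and DGAT2 passed with medians of 0.761, 0.938 and 0.985 FPKM.

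Levels can be compared between genes in FPKM, which is scaled by transcript length; the order was set from the same values that the tests below use. ACACB had the highest level by median, 10.2 FPKM, and exceeded the next gene, ACLY at 3.14 FPKM, in 8 of 8 libraries (two-sided exact sign-flip permutation test on log2 FPKM, adjusted p = 0.0352 over 9 neighbouring pairs). FASN and ME1 followed at 2.86 and 2.70 FPKM, and the steps from ACLY to FASN and from FASN to ME1 were within the spread between libraries (exact permutation adjusted p = 0.992 and 0.717). ME1 exceeded DGAT1, at 1.51 FPKM, in 8 of 8 libraries (exact permutation adjusted p = 0.0352). Below DGAT1 came SREBF1 at 1.42, ELOVL6 at 1.12, DGAT2 at 0.985, ACACA at 0.938 and SCD at 0.761 FPKM, and the 5 remaining steps were within the spread (exact permutation adjusted p from 0.717 to 0.992).

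ACLY, ATP citrate lyase, makes cytosolic acetyl-CoA from citrate and opens the pathway (ENSSSCG00000017421, Sscrofa11.1 chromosome 12, 20796749 to 20841298, plus strand). It measured 4.97, 2.21, 5.68 and 2.74 FPKM in melatonin replicates 1 to 4, against 3.43, 2.91, 3.37 and 2.65 FPKM in control replicates 1 to 4. Melatonin replicates 1 and 3 were above every control, and melatonin replicate 2 was below every control. The log2 fold change was 0.20 ± 0.22 (SE; edgeR adjusted p = 0.745). Melatonin replicates 1 and 3 were also the libraries with high COL1A1 and with the highest ADIPOQ, an adipocyte marker (77.6 and 50.7 FPKM). Control replicate 3, with 30.4 FPKM of ADIPOQ, had 3.37 FPKM of ACLY. The ACLY fold change was 0.037 without melatonin replicate 3 and -0.21 without melatonin replicates 1 and 3 together. The part of connective tissue or of adipocytes in this was not tested.

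The 2 acetyl-CoA carboxylases make malonyl-CoA in different places. ACACA, the cytosolic form that feeds fatty acid synthase (ENSSSCG00000017694, chromosome 12, 38581457 to 38824712, minus strand), measured 1.75, 0.877, 1.28 and 0.891 FPKM in melatonin replicates 1 to 4, against 0.986, 0.771, 1.13 and 0.844 FPKM in control replicates 1 to 4. ACACB, the form at the mitochondrial surface whose malonyl-CoA inhibits carnitine palmitoyltransferase 1 (ENSSSCG00000061436, chromosome 14, 41621574 to 41739916, minus strand), measured 8.43, 10.8, 13.7 and 8.26 FPKM in melatonin replicates 1 to 4. In control replicates 1 to 4 it measured 11.12, 7.23, 12.9 and 9.54 FPKM. Both genes overlapped between the groups, and ACACB had the narrowest range of the 10, 1.89-fold between its lowest and highest library, near the median of 1.98-fold over all genes tested. The log2 fold change was 0.25 ± 0.18 for ACACA (edgeR adjusted p = 0.61, 95% interval -0.16 to 0.66) and -0.06 ± 0.19 for ACACB (edgeR adjusted p = 0.924, 95% interval -0.49 to 0.38). Without melatonin replicate 1 they were 0.091 for ACACA and 0.072 for ACACB.

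ACACB made up most of the carboxylase transcript in every library. Its share of the summed FPKM of ACACA and ACACB was 82.8, 92.5, 91.4 and 90.3% in melatonin replicates 1 to 4, against 91.9, 90.4, 91.9 and 91.9% in control replicates 1 to 4. Melatonin replicate 1 alone lay outside a band of 90.3 to 92.5%. The means were 89.2 ± 4.40% after melatonin and 91.5 ± 0.765% in controls (SD, n = 4 each), a difference of -2.26 percentage points that was within the spread (two-sided exact permutation p = 0.514, adjusted p = 0.514 over 2 shares). Without melatonin replicate 1 the difference was -0.10 percentage points. The smallest p that 4 against 4 libraries allow is 0.0286.

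FASN encodes fatty acid synthase, the multidomain enzyme that makes palmitate (ENSSSCG00000029944, chromosome 12, 920509 to 937561, plus strand). It measured 9.76, 3.51, 4.91 and 2.15 FPKM in melatonin replicates 1 to 4, against 1.79, 1.81, 8.14 and 2.21 FPKM in control replicates 1 to 4. Control replicate 3 stood well above the other 3 controls. Melatonin replicate 4 lay within the range of those 3 controls, melatonin replicates 2 and 3 lay between them and control replicate 3, and melatonin replicate 1 was highest. Group means were 5.08 ± 3.31 FPKM and 3.49 ± 3.11 FPKM in melatonin and control libraries (SD, n = 4 each). FASN had a log2 fold change of 0.40 ± 0.53 by edgeR (adjusted p = 0.786), with a 95% interval from a 0.581-fold to a 3.02-fold change. It was -0.02 without melatonin replicate 1 and 1.22 without control replicate 3.

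ME1, cytosolic malic enzyme, supplies NADPH for synthesis (ENSSSCG00000004454, chromosome 1, 82799684 to 82991085, plus strand). It measured 3.77, 2.96, 3.02 and 2.12 FPKM in melatonin replicates 1 to 4, against 2.02, 2.45, 2.19 and 5.07 FPKM in control replicates 1 to 4. Its highest library, control replicate 4, was not high for FASN, SCD or DGAT2. ME1 had a log2 fold change of -0.07 ± 0.28 (adjusted p in edgeR = 0.931) and one of 0.28 without control replicate 4.

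ELOVL6 and SCD act on the product of FASN. ELOVL6, which lengthens palmitate to stearate (ENSSSCG00000036236, chromosome 8, 112027054 to 112191274, plus strand), measured 2.33, 1.197, 1.47 and 0.752 FPKM in melatonin replicates 1 to 4, against 1.05, 0.521, 2.90 and 0.699 FPKM in control replicates 1 to 4. SCD, which introduces the double bond that turns stearate into oleate (ENSSSCG00000010554, chromosome 14, 111461569 to 111478020, plus strand), measured 5.33, 1.05, 0.991 and 0.360 FPKM in melatonin replicates 1 to 4. In control replicates 1 to 4 SCD measured 0.530, 0.441, 7.29 and 0.453 FPKM. For both genes control replicate 3 was the highest library of all and melatonin replicate 1 the second, with ranges of 5.57-fold for ELOVL6 and 20.2-fold for SCD. SCD reads per library ran from 121 to 2164.

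For ELOVL6 the log2 fold change was 0.05 ± 0.48 (edgeR adjusted p = 0.974) and for SCD it was -0.33 ± 1.02 (edgeR adjusted p = 0.915, 95% interval from 0.162-fold to 3.88-fold). For SCD the fold change was -1.45 without melatonin replicate 1 and 1.80 without control replicate 3, which differ in sign. DESeq2 gave no p-value for SCD. On log2(FPKM + 1) in limma the SCD difference was 0.10, of the opposite sign to edgeR's.

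DGAT1 and DGAT2 catalyse the same last step, the addition of a fatty acid to diacylglycerol, with unrelated proteins. DGAT2 (ENSSSCG00000034102, chromosome 9, 10047512 to 10068437, plus strand) measured 14.8, 1.36, 2.32 and 0.245 FPKM in melatonin replicates 1 to 4, against 0.130, 0.284, 5.24 and 0.607 FPKM in control replicates 1 to 4. It had the widest range of the 10 genes, 114-fold, from 29 reads in control replicate 1 to 3303 reads in melatonin replicate 1. DGAT1 (ENSSSCG00000005918, chromosome 4, 452662 to 463664, plus strand) measured 2.76, 1.55, 1.76 and 1.33 FPKM in melatonin replicates 1 to 4, against 1.11, 1.47, 1.82 and 1.45 FPKM in control replicates 1 to 4. DGAT1 thus moved within 2.48-fold, with melatonin replicate 1 highest and control replicate 3 next. DGAT1 overlaps HSF1, a heat shock transcription factor gene at a mean of 9.79 FPKM, by 272 bases on the opposite strand; strand use in counting is not given in the sources used here, so some reads may belong to either gene.

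Group means of DGAT2 were 4.69 ± 6.81 FPKM after melatonin and 1.57 ± 2.46 FPKM in controls (SD, n = 4 each), and its log2 fold change of 1.38 ± 1.24 was the largest in size of the 10 (edgeR adjusted p = 0.683). The 95% interval ran from a 0.381-fold to a 17.9-fold change. Without melatonin replicate 1 the value was -0.33, and without control replicate 3 it was 3.53. DGAT1 had a log2 fold change of 0.22 ± 0.22 (adjusted p in edgeR = 0.718); it was 0.053 without melatonin replicate 1 and 0.098 without control replicate 1. DGAT2's share of the summed FPKM of DGAT1 and DGAT2 was 84.3, 46.7, 56.8 and 15.5% in melatonin replicates 1 to 4, against 10.4, 16.2, 74.2 and 29.5% in control replicates 1 to 4. The more abundant enzyme was thus DGAT2 in melatonin replicates 1 and 3 and control replicate 3, and DGAT1 in the other 5 libraries. The mean share was 50.8 ± 28.4% after melatonin and 32.6 ± 28.9% in controls (SD, n = 4 each), a difference of 18.2 percentage points within the spread (two-sided exact permutation p = 0.429, adjusted p = 0.514). It was -1.47 percentage points without melatonin replicates 1 and 3 together and 32.1 without control replicate 3.

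**Figure D2:**
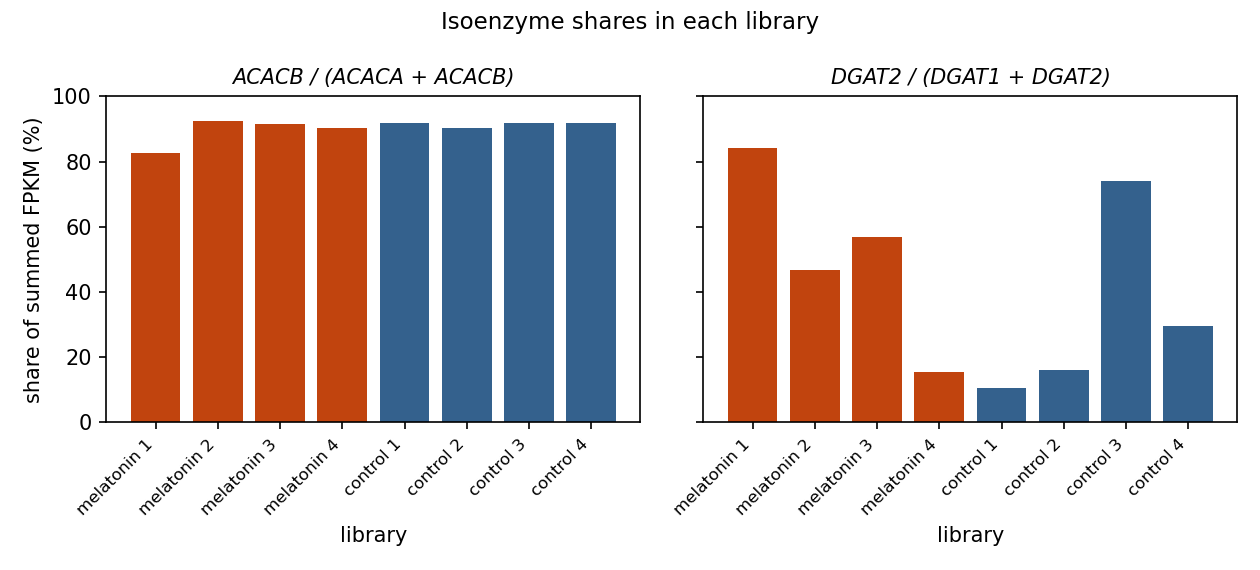
Share of ACACB in the summed FPKM of ACACA and ACACB (left) and of DGAT2 in that of DGAT1 and DGAT2 (right), in percent, in each melatonin (orange) and control (blue) library. The ACACB share lies between 82.8 and 92.5%, while the DGAT2 share runs from 10.4 to 84.3%.

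SREBF1 encodes SREBP-1, the transcription factor that activates FASN, SCD and other genes of the pathway (ENSSSCG00000033626, chromosome 12, 60733907 to 60751267, plus strand). It measured 2.10, 0.755, 1.02 and 1.53 FPKM in melatonin replicates 1 to 4, against 1.31, 1.59, 2.43 and 1.12 FPKM in control replicates 1 to 4. Control replicate 3 and melatonin replicate 1 were again highest, but the other 6 libraries did not follow the order of FASN: melatonin replicates 2 and 3 had the lowest SREBF1 and the highest FASN after those libraries. The log2 fold change was -0.35 ± 0.34 (edgeR adjusted p = 0.708). It was -0.12 without control replicate 3, -0.18 without melatonin replicate 2 and -0.54 without melatonin replicate 1, and stayed below 0 in each alternative in which the gene was tested. The microRNA gene ssc-mir-33b lies within SREBF1 on the same strand and measured a mean of 0.0114 FPKM.

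**Figure D3:**
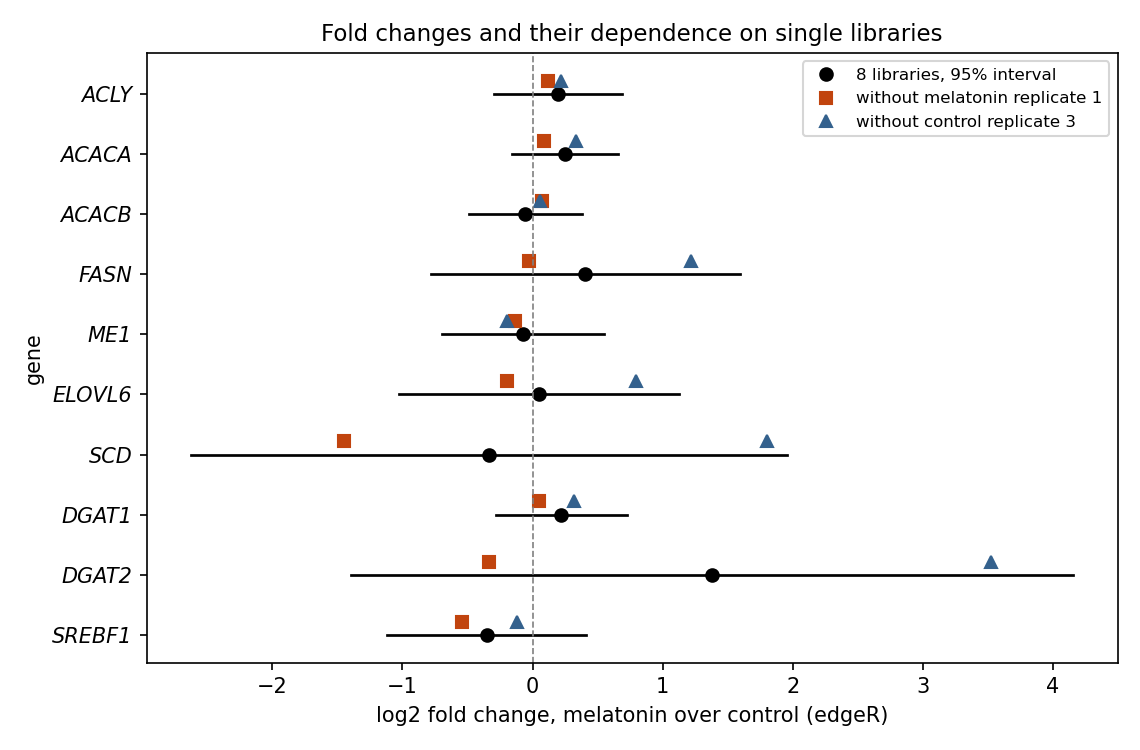
Log2 fold change, melatonin over control, from edgeR for each gene, with its 95% interval over 8 libraries (black), without melatonin replicate 1 (orange squares) and without control replicate 3 (blue triangles). Every interval includes 0, and SCD has -1.45 without melatonin replicate 1 and 1.80 without control replicate 3.

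Without control replicate 3 alone, 4 of 10 genes reached an unadjusted p under 0.05, all in the upward direction, against 8.41% of all genes in that fit. Control replicate 3 was the highest control library for 8 of 10 genes, these 4 among them. Leaving it out lowers their control means, so the count is a description. FASN had a log2 fold change of 1.22 ± 0.37, DGAT2 of 3.53 ± 1.20, ELOVL6 of 0.79 ± 0.31 and SCD of 1.80 ± 0.74, each with an edgeR adjusted p of 0.584. Without melatonin replicate 1 the count was 0 of 10. Control replicate 3 and melatonin replicate 1 had the highest mean of adipocyte markers in their groups. With these 2 libraries left out together, a choice made after seeing the data, 2 of 10 genes had an unadjusted p under 0.05, against 6.96% of all genes in that fit. They were FASN (0.78 ± 0.22) and DGAT2 (1.81 ± 0.74), each with an edgeR adjusted p of 0.7. The libraries left in still differed in the adipocyte markers ADIPOQ, PLIN1 and CIDEC. Their mean log2(FPKM + 1) was 3.21, 4.03 and 0.573 in melatonin replicates 2, 3 and 4. In control replicates 1, 2 and 4 it was 0.615, 0.775 and 0.971. The part of adipocyte content in the FASN and DGAT2 values was not tested.

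The genes differed in their spread within groups. The within-group SD of log2 CPM (counts scaled to library size) was 2.23 for DGAT2, 1.70 for SCD, 0.881 for FASN and 0.795 for ELOVL6, which put these 4 at or above the 95.5th percentile of all genes tested. SREBF1 (0.568) and ME1 (0.442) were intermediate. ACLY (0.346), DGAT1 (0.314), ACACB (0.298) and ACACA (0.243) lay near the median of all genes, 0.281, between the 39.0th and 64.7th percentiles. Genes whose 2 highest libraries were melatonin replicate 1 and control replicate 3 numbered 6 of 10 (FASN, ELOVL6, SCD, DGAT1, DGAT2 and SREBF1), against 4.33% of all genes. These 2 libraries were singled out from values of the same genes, so the count restates that choice and is a description.

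**Figure D4:**
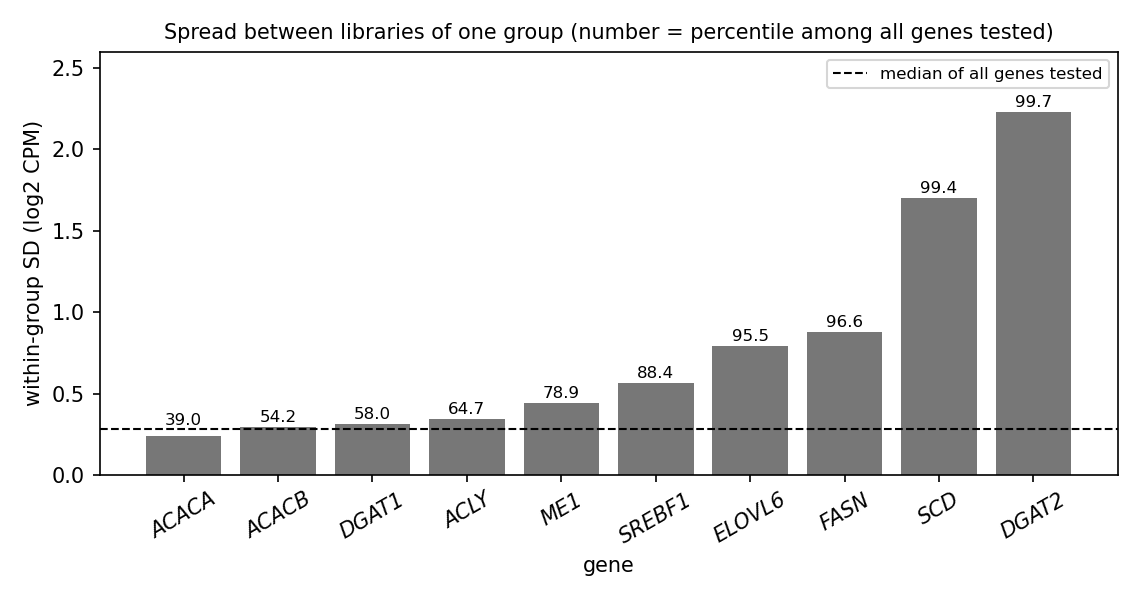
Within-group SD of log2 CPM for each gene (bars), its percentile among all genes tested (numbers) and the median of all genes (dashed line). DGAT2 and SCD stand at 2.23 and 1.70, and ACACA at 0.243 is below the median of 0.281.

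Adipocyte markers varied between the same libraries. ADIPOQ, the adipocyte hormone adiponectin, measured 77.6, 21.7, 50.7 and 1.03 FPKM in melatonin replicates 1 to 4, against 0.990, 1.57, 30.4 and 2.27 FPKM in control replicates 1 to 4. PLIN1, the coat protein of large lipid droplets, measured 19.9, 5.20, 13.4 and 0.343 FPKM in melatonin replicates 1 to 4, against 0.326, 0.224, 9.04 and 0.670 FPKM in control replicates 1 to 4. CIDEC, which fuses lipid droplets, measured 15.7, 4.63, 4.81 and 0.208 FPKM in melatonin replicates 1 to 4, against 0.360, 0.596, 6.61 and 0.379 FPKM in control replicates 1 to 4. All 3 markers were high in melatonin replicates 1, 2 and 3 and control replicate 3 and low in the other 4 libraries. LEP was listed at 0 in 5 of 8 libraries and reached 0.293 FPKM in melatonin replicate 1.

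These 4 libraries also held the 4 highest values of FASN, ELOVL6, SCD, DGAT1 and DGAT2, that is in 5 of 10 lipogenic genes, against 6.62% of all genes tested and 10 of 13 adipocyte markers. The 4 libraries were picked by ADIPOQ, PLIN1 and CIDEC, which are 3 of those 10 markers, and with the lipogenic values known, so these counts are descriptions. ACLY, ACACA, ACACB, ME1 and SREBF1 did not show this order. Summed over the 14 adipocyte markers in the table, levels ran from 340.5 to 556 FPKM after melatonin and from 346 to 482 FPKM in controls. GPD1, 1 of these markers, alone measured 128 to 284 FPKM and was lowest in melatonin replicate 1, where ADIPOQ was highest. Summed over ADIPOQ, PLIN1, CIDEC and LEP, levels ran from 1.58 to 114 FPKM after melatonin and from 1.68 to 46.1 FPKM in controls. None of the 13 tested markers passed in edgeR (11 above 0, 2 below, 0 at an unadjusted p under 0.05, median log2 fold change 0.84), and the part of adipocyte content in the lipogenic values was not tested. In bulk RNA, fewer adipocytes in a sample and less RNA per adipocyte cannot be told apart.

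**Figure D5:**
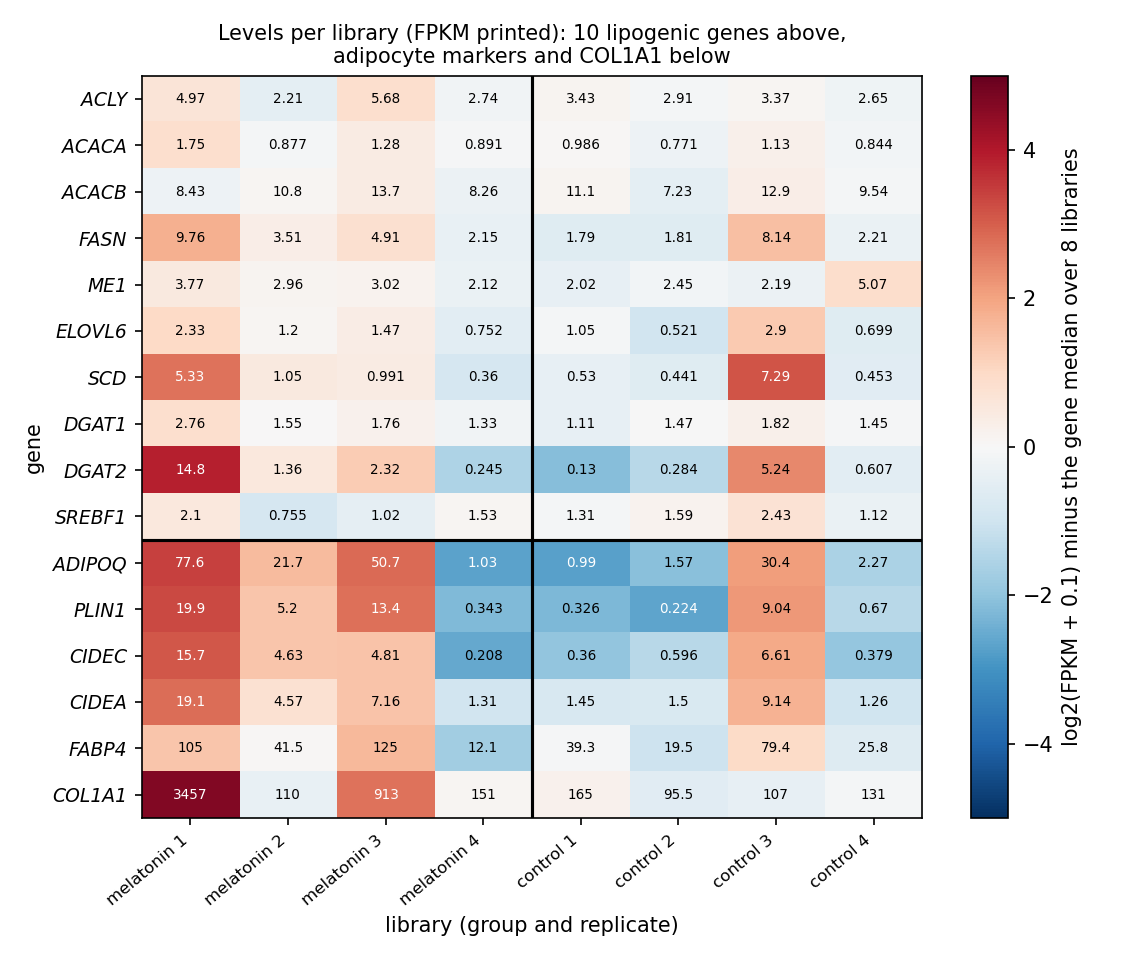
FPKM of the 10 lipogenic genes (above the line), 5 adipocyte markers and COL1A1 (below) in each melatonin and control library, coloured by log2(FPKM + 0.1) minus the gene's median over the 8 libraries. FASN, SCD and DGAT2 are high in melatonin replicate 1 (77.6 FPKM of ADIPOQ) and control replicate 3 (30.4 FPKM of ADIPOQ). In melatonin replicate 3 ADIPOQ was 50.7 FPKM, while FASN, SCD and DGAT2 were 4.91, 0.991 and 2.32 FPKM, each below control replicate 3. COL1A1 is high in melatonin replicates 1 and 3 but not in control replicate 3.

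Among all genes tested, the 5 outside the lipogenic set whose log2(FPKM + 1) most resembled that of FASN over the 8 libraries were YPEL2 (Pearson r = 0.98), CIDEA (0.97), ADIRF (0.97), THRSP (0.97) and CAND1 (0.97). THRSP overlaps NDUFC2 on the opposite strand, so its reads are uncertain in the same way. THRSP, a thyroid hormone responsive nuclear protein that promotes lipogenesis, measured 2.92, 0.655, 2.31 and 0.164 FPKM in melatonin replicates 1 to 4, against 0.0720, 0.0533, 3.28 and 0.0651 FPKM in control replicates 1 to 4. CIDEA, a lipid droplet protein, and ADIRF, an adipogenesis factor, are among the adipocyte markers. By the same measure DGAT2 was the 2nd most similar gene to FASN (r = 0.98), ELOVL6 the 15th (0.94), SCD the 23rd (0.93), DGAT1 the 57th (0.89) and ACACA the 146th (0.85) of 9820. SREBF1 (0.52), ACLY (0.58), ACACB (0.36) and ME1 (0.17) were less similar. These are likenesses over 8 libraries that share depth and tissue makeup, and carry no test.

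Of the 13 listed genes for acetyl-CoA and NADPH supply, all tested, 0 reached an unadjusted p under 0.05, 3 lay above 0 and 10 below, with a median log2 fold change of -0.05. The smallest p belonged to ACSS2, which makes acetyl-CoA from acetate, at -0.26 ± 0.12 (edgeR adjusted p = 0.478), and to PC, pyruvate carboxylase, at 0.54 ± 0.26 (edgeR adjusted p = 0.490). On the opposite strand ACSS2 overlaps GSS, at a mean of 1.19 FPKM, and PC overlaps LRFN4, at 0.508 FPKM. PC measured 25.5, 14.3, 24.3 and 12.7 FPKM in melatonin replicates 1 to 4, against 7.49, 11.3, 17.8 and 11.6 FPKM in control replicates 1 to 4, so all but control replicate 3 of the controls lay below every melatonin library.

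Other elongases and desaturases (10 tested of 16 listed) gave 0 of 10 genes at an unadjusted p under 0.05, with 5 above 0 and 5 below and a median log2 fold change of 0.06. ELOVL5, an elongase of polyunsaturated fatty acids, had 0.63 ± 0.29 (edgeR adjusted p = 0.478), and FADS2, the delta-6 desaturase, -0.45 ± 0.23 (edgeR adjusted p = 0.520). The list for glycerolipid assembly had a median of -0.03. It holds the steps from glycerol phosphate to diacylglycerol, and genes that make glycerol phosphate, activate fatty acids or acylate monoacylglycerol. At an unadjusted p under 0.05 it gave 1 of 15 genes tested (21 listed), in the downward direction, against 10.5% of all genes. That gene was LPIN3, a phosphatidate phosphatase, at -0.51 ± 0.21 (edgeR adjusted p = 0.461). Its relative LPIN1, the main muscle form, had 0.55 ± 0.32 (edgeR adjusted p = 0.541), and 0.25 without melatonin replicate 3. LPIN1 measured 15.1, 24.3, 41.5 and 13.0 FPKM in melatonin replicates 1 to 4, against 13.5, 9.68, 18.4 and 18.1 FPKM in control replicates 1 to 4, and melatonin replicates 2 and 3 were above every control. COL1A1 was high in melatonin replicate 3 and low in melatonin replicate 2, and the part of connective tissue in LPIN1 was not tested.

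Regulators of lipogenesis gave 3 of 19 genes tested (21 listed) at an unadjusted p under 0.05, 2 higher and 1 lower, a share of the list to be read beside the 10.5% of all genes. The list's median log2 fold change was -0.06. MBTPS1, the site-1 protease that makes the first cut in releasing SREBP from the Golgi membrane (ENSSSCG00000002682, chromosome 6, 4503565 to 4558609), measured 17.5, 14.1, 18.1 and 11.2 FPKM in melatonin replicates 1 to 4, against 10.7, 9.69, 10.9 and 10.8 FPKM in control replicates 1 to 4. Every melatonin library was above every control library. The difference of 0.43 ± 0.11 on the log2 scale missed the threshold in edgeR (adjusted p = 0.440) and passed in DESeq2 (adjusted p = 0.0415); over the other alternatives the adjusted p ranged from 0.0914 to 0.952. SREBF1 itself had the opposite sign.

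In 3 of 19 regulators the groups did not overlap in FPKM, against 2.2% of all genes. Beside MBTPS1 these were SP1 and NFYC, named after their values were seen. SP1, a general promoter factor that acts with SREBP, measured 3.35, 4.12, 4.13 and 3.31 FPKM in melatonin replicates 1 to 4, against 2.80, 2.46, 2.82 and 2.50 FPKM in control replicates 1 to 4 (log2 fold change 0.42 ± 0.17, edgeR adjusted p = 0.453). NFYC, a subunit of the NF-Y factor that also binds such promoters, averaged 6.46 ± 0.207 FPKM after melatonin and 7.41 ± 0.400 FPKM in controls (SD, n = 4 each), with a log2 fold change of -0.27 ± 0.15 (adjusted p in edgeR = 0.534). PPARGC1B, a coactivator of SREBP-1 in liver, had -0.96 ± 0.33 (edgeR adjusted p = 0.441). The microRNA gene ssc-mir-378-1, at a mean of 11 FPKM, overlaps PPARGC1B on the same strand, so some reads may belong to either gene.

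AMPK is the kinase that switches off ACACA and ACACB by phosphorylation. Genes of AMPK and malonyl-CoA control gave 1 of 11 tested (12 listed) at an unadjusted p under 0.05, against 10.5% of all genes. It was CPT1A, an outer-membrane carnitine palmitoyltransferase that malonyl-CoA inhibits, at 9.48, 6.08, 8.65 and 3.69 FPKM in melatonin replicates 1 to 4, against 3.95, 3.33, 4.13 and 5.01 FPKM in control replicates 1 to 4. Melatonin replicates 1, 2 and 3 were above every control and melatonin replicate 4 was within them (log2 fold change 0.64 ± 0.19, edgeR adjusted p = 0.440). CPT1B, of the same list, was more abundant and had the opposite sign. It averaged 48.7 FPKM after melatonin and 59.5 FPKM in controls (-0.35 ± 0.19, edgeR adjusted p = 0.526). PRKAG3, the AMPK subunit of glycolytic muscle, measured 9.69, 8.75, 18.8 and 22.5 FPKM in melatonin replicates 1 to 4, against 22.5, 22.2, 19.8 and 28.9 FPKM in control replicates 1 to 4 (-0.69 ± 0.33, edgeR adjusted p = 0.491). The list's median was -0.08, with 4 genes above 0 and 7 below.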

How the data were processed

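Poly(A) RNA was sequenced as paired reads from libraries with dUTP-marked second strands, per the labels' protocols. The authors deposited, per the file headers, whole-number counts and FPKM values per gene for each library; FPKM scales counts by transcript length and library size. FastQC, StringTie, DESeq2 and build Sscrofa11.1 appear, with neither role nor version, in the submitters' processing notes. Aligner and annotation release: not given in the sources used here. Columns without a library numbered 0.

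Counts of the 9821 genes at a mean FPKM of at least 1 were tested with edgeR 4.0.16 in R 4.3.3 (TMM scaling, legacy quasi-likelihood F test, no covariate, Benjamini-Hochberg adjustment over all genes tested, threshold 0.05). SE values equal the fold change divided by the root of F, and intervals use the test's degrees of freedom. Scaling moved the median log2 fold change of all genes by less than 0.1. Isoenzyme shares were compared by exact permutation over all 70 assignments, and neighbouring levels by exact sign flips, with SciPy 1.17.1, pandas 2.3.3 and NumPy 2.4.6 under Python 3.11.15. Plots used Matplotlib 3.10.9. The tests were checked on simulated data. For edgeR these were counts drawn with the spread typical of genes of like level, so the check does not cover genes as variable as DGAT2 and SCD. No 2 libraries were duplicates (lowest chi-square per degree of freedom 49.8).

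Alternatives were other scalings, DESeq2 1.42.0, limma 3.58.1 on log2(FPKM + 1) and log2(FPKM + 0.1), other filters, the replicate number as a block, the bias-adjusted test, and leaving out libraries. The genes described, the gene lists and the tests were chosen with earlier results of these data known. Genes are named if they are in the lipogenic set, are the 2 smallest p of a pathway list, define adipocytes or fibroblasts, or are among the 5 most like FASN. SP1 and NFYC (groups that do not overlap), ACTA1, CKM, MYH1, MYH4 and MYH7 (tissue check), and COL3A1, LUM, CPT1B and GPD1 fall outside this rule. All of these were named after their values were seen. No sequence is printed.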

Additional observations from a re-analysis of the deposited data

Results flagged for a closer look

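In groups of 4, a library is listed here by its gap to the nearest other library, as a part of the group's whole range. It is listed where that part exceeded Dixon's 95% critical value for 4 samples. Groups of normally distributed values pass this in about 1 in 20 cases. The rule was run on FPKM and shares without a log, and for skewed values the rate can differ. The list is therefore a description, and which libraries would pass on a log scale was not tested. FASN in control replicate 3 was 8.14 FPKM, against 1.79 to 2.21 in the other controls. SCD was 5.33 FPKM in melatonin replicate 1, against 0.360 to 1.05 in the other melatonin libraries, and 7.29 FPKM in control replicate 3, against 0.441 to 0.530 in the other controls. DGAT2 was 14.8 FPKM in melatonin replicate 1, against 0.245 to 2.32 in the other melatonin libraries, and 5.24 FPKM in control replicate 3, against 0.130 to 0.607 in the other controls. ME1 in control replicate 4 was 5.07 FPKM, against 2.02 to 2.45 in the other controls. The ACACB share in control replicate 2 was 90.4%, against 91.9% in each of the other controls, a small difference within a narrow group.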

How the results depend on the processing

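No lipogenic gene passed the adjusted threshold in edgeR under any alternative run, in limma, or in DESeq2, which gave SCD no p-value. The number of all genes past it was 0 in edgeR, 65 in DESeq2 and 0 to 15 with 1 library left out (15 without melatonin replicate 4). Genes at an unadjusted p under 0.05 numbered 1032, and 556 and 559 in limma at pseudocounts 1 and 0.1, 1789 with no filter, 434 at a mean of at least 5 FPKM, 568 to 1882 with 1 library left out, 474 without melatonin replicates 1 and 3 together and 684 without melatonin replicate 1 and control replicate 3 together, the last chosen after seeing the data. Lipogenic genes at that level were 0 to 4 with 1 library left out (4 without control replicate 3) and 2 without melatonin replicate 1 and control replicate 3.

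Signs of fold changes that had not passed the threshold turned as follows; the cause was not tested. With 1 library left out, ranges were -0.14 to 0.072 for ACACB, -0.025 to 1.22 for FASN, -0.22 to 0.28 for ME1, -0.20 to 0.79 for ELOVL6, -1.45 to 1.80 for SCD, -0.33 to 3.53 for DGAT2 and -0.0069 to 0.13 for CAND1. In limma at pseudocounts 1 and 0.1, ACACB had 0.014 and 0.016, ME1 0.058 and 0.089 and SCD 0.10 and 0.29. Without melatonin replicates 1 and 3 together, ACLY had -0.21, ACACB 0.024, FASN -0.18, ELOVL6 -0.27, DGAT2 -0.83, CIDEA -0.065, ADIRF -0.45, THRSP -0.95 and the DGAT2 share -1.47 percentage points. Without melatonin replicate 1 and control replicate 3, ACACB had 0.19, SCD 0.68 and the ACACB share 0.038 percentage points.

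Correlations of deviations from group means between same-numbered libraries of the 2 groups were 0.18, 0.07, 0.17 and -0.03 for numbers 1 to 4. Between libraries of different numbers they ran from -0.24 to 0.30. So few values cannot decide whether the numbers mark pairs. With the replicate number as a replicate block 1061 genes had an unadjusted p under 0.05, 0 passed the adjusted threshold, and ME1 (0.019) and SCD (0.36) turned in sign. Each share had an exact sign-flip p of 0.625. With 4 differences between same-numbered libraries that test cannot reach a p under 0.05, so it decides nothing about the shares. The planned correlation of each gene with the adipocyte marker mean is not given, because by ADIPOQ, PLIN1 and CIDEC the libraries fall into separate clusters of 4, too few for a value within a cluster. DGAT2 at 29 reads in control replicate 1 is the lowest count; 4 libraries per group limit precision.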
